A study of Homo sapiens with 51 samples.

Results

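The nuclear-encoded subunits of oxidative phosphorylation were taken as the protein-coding genes whose symbols follow the naming of the 5 complexes of the inner mitochondrial membrane. They were the NDUFA, NDUFB, NDUFC, NDUFS and NDUFV genes, SDHA to SDHD, the UQCR genes with CYC1, the COX4 to COX8 genes, and the ATP5F, ATP5M and ATP5P genes. This gave 87 genes of the 60664 in the count files, of which 19921 are protein-coding. Complex I had 36 members, complex II 4, complex III 10, complex IV 18 and complex V 19. NDUFA4 was counted with complex IV, where its protein is known to sit.

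Complexes I and II feed electrons from NADH and succinate into ubiquinone, complex III passes them to cytochrome c, and complex IV passes them to oxygen. Proton pumping by complexes I, III and IV drives complex V, the ATP synthase. Some subunits of complexes I, III, IV and V are encoded in mitochondrial DNA, and all other subunits are made from nuclear genes whose mRNAs must be exported, translated and their products imported. K562, an established line from a chronic myelogenous leukaemia, grows fast and makes haem, whose last steps take place in mitochondria.

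Cells were fractionated, and ribosomal RNA-depleted, strand-specific libraries were made from the nuclear and the cytoplasmic fraction. All libraries are from K562 cells. In the guide set, CRISPR interference blocked transcription of 1 gene at a time: sgDDX3 targets DDX3, sgCNOT1 targets CNOT1 and sgNUP160 targets NUP160, while the control guide sgGal4 targets a yeast gene. DDX3 is an RNA helicase that acts in translation, CNOT1 is the scaffold of the CCR4-NOT deadenylase, and NUP160 is a subunit of the nuclear pore. In the transgene set, cells carried sgDDX3 and no DDX3 transgene (noTG), or a lentiviral DDX3 transgene with endogenous DDX3 knocked down. The transgene was a mutant (G325E, R326H, R351W, R376C, R534S or T532M) or wild type (WT), and uninfected cells completed the set. The labels do not say whether the lines are clones or pools, nor in which experiment the uninfected cells were grown, and their place in the transgene set is an assumption. Each of the 13 genotypes had 2 libraries per fraction, except R376C, with 1 in each fraction used here. The labels do not say whether replicates were separate cultures, so the spread behind each p-value is that of these libraries and may be technical.

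The fractions did not hold what their labels say. MALAT1, a nuclear RNA, had 1665 to 3549.5 CPM, that is counts scaled to 1000000 gene reads, in the 25 nuclear-labelled libraries used, against 20729 to 34091 CPM in the 25 cytoplasmic-labelled libraries. The fractions are therefore named by label, as nuclear-labelled and cytoplasmic-labelled, throughout. R376C nuclear-labelled replicate 2 was left out. Its members summed to 4221 CPM, within the range of the cytoplasmic-labelled libraries. Gene reads per library ranged from 3716156 to 21365002 in nuclear-labelled and from 2354961 to 10386022 in cytoplasmic-labelled libraries. The targeted genes were low where labelled: DDX3X had 39.8 and 42.6 CPM in sgDDX3 against 257 and 273 CPM in sgGal4 nuclear-labelled libraries. CNOT1 had 46.2 and 45.8 CPM in sgCNOT1 against 811 and 822 CPM in sgGal4, and NUP160 had 15.9 and 12.5 CPM in sgNUP160 against 149 and 152 CPM in sgGal4. Of 12 K562 markers, 11 were detected, with a summed level of 1144 to 1776 CPM in nuclear-labelled and 1651 to 2640 CPM in cytoplasmic-labelled libraries. TFRC made up much of it, with medians of 678.8 and 1355 CPM against median sums of 1468 and 1982 CPM. The globin genes HBG1 and HBG2 were low, with medians of 8.34 and 5.22 CPM in nuclear-labelled and 1.73 and 0.53 CPM in cytoplasmic-labelled libraries. HBE1 was at 0 in every library used. Reads that were ambiguous between genes or mapped to several places were not counted. Their part in these globin values was not tested, so low counts need not mean low expression. Markers of lymphocytes and of fibroblasts summed to at most 12.8 CPM. Of the 4 monocyte and granulocyte markers only CSF3R exceeded 4 CPM, and of the 3 epithelial markers only EPCAM exceeded 1 CPM.

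Promoters are shown for 4 members with the largest falls in the 2 knockdowns that moved the members most. NDUFB4, COX8A and COX5B had the 3 largest falls with sgNUP160 in cytoplasmic-labelled libraries, and ATP5ME and COX8A the 2 largest with sgCNOT1 in nuclear-labelled libraries. Each run is the 300 bases from 250 before to 50 after the RefSeq start (GRCh38.p14), read 5′ to 3′ on the gene's strand. Capitals mark matches, on either strand, to the 10-base NRF1 motif, in which 1 base is free, and to the ETS motif ccggaag. NRF1 and the ETS factor GABP are activators of many respiratory genes.
NDUFB4 (chr3:120596086-120596385, + strand): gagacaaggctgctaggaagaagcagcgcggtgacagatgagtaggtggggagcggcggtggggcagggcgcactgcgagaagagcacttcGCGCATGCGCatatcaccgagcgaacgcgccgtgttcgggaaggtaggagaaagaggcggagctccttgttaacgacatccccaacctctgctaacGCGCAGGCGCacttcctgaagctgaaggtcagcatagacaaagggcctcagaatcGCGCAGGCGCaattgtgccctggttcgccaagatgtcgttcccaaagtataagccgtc
COX8A (chr11:63974370-63974669, + strand): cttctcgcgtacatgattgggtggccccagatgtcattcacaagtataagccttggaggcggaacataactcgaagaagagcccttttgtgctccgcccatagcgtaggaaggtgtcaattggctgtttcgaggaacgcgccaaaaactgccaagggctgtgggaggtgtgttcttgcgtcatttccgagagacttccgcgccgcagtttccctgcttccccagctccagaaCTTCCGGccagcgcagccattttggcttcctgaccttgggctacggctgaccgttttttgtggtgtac
COX5B (chr2:97645812-97646111, + strand): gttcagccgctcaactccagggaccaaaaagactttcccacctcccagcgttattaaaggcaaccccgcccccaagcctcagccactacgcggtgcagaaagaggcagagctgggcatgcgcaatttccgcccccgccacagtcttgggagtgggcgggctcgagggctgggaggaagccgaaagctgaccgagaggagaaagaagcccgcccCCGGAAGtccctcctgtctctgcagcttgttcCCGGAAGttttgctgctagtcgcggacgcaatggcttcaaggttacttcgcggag
ATP5ME (chr4:674227-674526, - strand): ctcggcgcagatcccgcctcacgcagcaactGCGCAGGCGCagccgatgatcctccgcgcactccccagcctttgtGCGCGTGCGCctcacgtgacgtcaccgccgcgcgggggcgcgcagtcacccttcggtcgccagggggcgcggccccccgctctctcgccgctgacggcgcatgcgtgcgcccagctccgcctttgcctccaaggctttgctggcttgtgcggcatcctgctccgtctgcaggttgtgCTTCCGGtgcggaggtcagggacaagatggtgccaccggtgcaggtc
The NDUFB4 window held 3 NRF1 matches and no ETS match, ATP5ME held 2 NRF1 matches and 1 ETS match, COX5B held 2 ETS matches, and COX8A held 1. Promoters were listed for 68 of the 87 members and 27305 genes in all. The NRF1 motif was in 17 of the 68 member promoters (25% against 6.28% of all promoters and 8.58% of protein-coding ones). The ETS motif was in 20 (29.4% against 10.7% and 14.2%). A 10-base motif that contains the core bound by YY1 was in 7 (10.3% against 1.28% and 1.93%). The end of an ETS match can also be the start of a YY1 match, and 37 member promoters held at least 1 of them (54.4% against 16.5% and 22.3%). By complex, the NRF1 motif was in 4 of 7 complex III promoters and 1 of 14 complex IV promoters. These are matches of letters in a fixed window and do not show binding.

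Levels between members were compared as reads per kilobase of principal transcript in 1000000 gene reads (RPKM), as the median over the nuclear-labelled libraries unless stated. In complex I the highest were NDUFS5 (385 RPKM), NDUFB9 (172) and NDUFB10 (149), which are accessory subunits. The lowest were NDUFA7 (0.442), NDUFA9 (0.930) and NDUFA13 (0.974). The 4 complex II genes lay between 3.73 and 51.1 RPKM. SDHB, the iron-sulfur subunit, was at 51.1 RPKM, and SDHA, the flavoprotein that oxidises succinate, was at 3.73 RPKM.

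In complex III the hinge subunit gene UQCRH led at 723 RPKM, followed by UQCRQ (126) and the cytochrome c1 gene CYC1 (116). In complex IV the highest were COX4I1 (371), COX5B (285) and COX6B1 (249). In complex V they were ATP5F1B (598), which encodes the catalytic beta subunit, ATP5ME (264) and ATP5MF (248). Medians over members were 52.7 RPKM in complex I, 13.1 in complex II, 84.4 in complex III, 55.5 in complex IV and 102 in complex V, against 23.6, 12.5, 34.6, 31.3 and 31.5 RPKM in cytoplasmic-labelled libraries.

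The tissue-restricted complex IV isoforms were near the limit of detection. Over the 50 libraries COX4I2 had 3 reads, COX6A2 2, COX7A1 1, COX7B2 2, COX8C 16 and the testis isoform COX6B2 92. COX4I1, COX6A1, COX6B1, COX7A2, COX7B and COX8A, their widely expressed counterparts, each had 21.8 RPKM or more in every nuclear-labelled library used. In all, 78 of the 87 members had reads in every library.

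These levels depend on the length taken for each principal transcript. It was 305 bases for ATP5MF, 365 for ATP5ME, 5818 for ATP5F1A and 8363 for NDUFA9. ATP5F1A had 751 and 767 CPM in sgGal4 nuclear-labelled libraries and ATP5ME 85.7 and 94.2 CPM, yet per length ATP5F1A was at 132 and ATP5ME at 264 RPKM. Whether these transcripts are the ones made in K562 cells was not tested. Some levels are also uncertain because the reads of a member can be shared with another gene. For 13 members more than 20% of the principal transcript overlapped another gene on the same strand in GENCODE release 29, among them NDUFV2 (82.9%), NDUFA7 (75.9%), NDUFB8 (71.7%), ATP5PO (70.3%), NDUFA11 (67.0%), ATP5MF (46.2%), NDUFA13 (44.1%), COX8A (34.5%), UQCR11 (31.2%), COX6A1 (30.6%) and SDHD (22.2%). UQCRHL is a near-identical copy of UQCRH, ATP5MGL of ATP5MG, and SDHA has near-identical pseudogenes.

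Most member mRNAs were far higher in the nuclear-labelled than in the cytoplasmic-labelled libraries. Their summed level was 7006 to 9896 CPM (median 9231) in nuclear-labelled libraries. In cytoplasmic-labelled ones it was 3204 to 4349 CPM (median 4110.0), and the ranges did not overlap. Some mRNAs outside the members were higher there too. RPLP0, EEF1A1 and GAPDH had medians of 2526, 14008 and 2276 CPM in nuclear-labelled against 529, 2490.5 and 373 CPM in cytoplasmic-labelled libraries. TFRC went the other way, with medians of 678.8 and 1355 CPM. In sgGal4 cells the 81 members tested had a median log2 ratio, nuclear-labelled over cytoplasmic-labelled, of 1.63, against -0.22 over all genes tested. Of them 69 were higher and 6 lower (background 65.0% called, 29.7% higher and 35.4% lower). In uninfected cells 68 were higher and 6 lower (background 72.5% called, 31.8% higher and 40.7% lower), and the median was 1.94 against -0.32 over all genes.

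The ratio differed between complexes. Complex III had medians of 2.22 in sgGal4 and 2.35 in uninfected cells, and complex V had 1.97 and 2.35. Complex II had 1.38 and 1.90, complex IV had 1.32 and 1.94, and complex I had the lowest, 1.19 and 1.42. All 10 complex III members were higher in the nuclear-labelled libraries in both cell kinds. Complex I made up 24.2% to 27.4% of member reads in nuclear-labelled but 37.9% to 48.1% in cytoplasmic-labelled libraries, and complex V 37.9% to 41.5% and 23.8% to 29.6%.

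UQCR10, a small complex III subunit, had the largest ratio. It had 71.2 and 73.7 CPM in sgGal4 nuclear-labelled and 14.7 and 11.2 CPM in sgGal4 cytoplasmic-labelled libraries (log2 ratio 2.85 ± 0.21, adjusted p = 2.09e-14), and its ratio in uninfected cells was 3.66 ± 0.15. UQCRH had 401 and 414 CPM and 77.9 and 75.9 CPM in the same order of fractions (2.79 ± 0.14, adjusted p = 1.69e-18). The epsilon subunit gene ATP5F1E and the stalk subunit gene ATP5PF followed, with ratios of 2.68 ± 0.17 and 2.72 ± 0.19. For each of these genes the 2 fractions did not overlap.

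A small group ran the other way. SDHA had 7.79 and 8.61 CPM in sgGal4 nuclear-labelled against 30.4 and 36.4 CPM in cytoplasmic-labelled libraries (-1.64 ± 0.22, adjusted p = 3.39e-08), and its ratio was -1.57 ± 0.18 in uninfected cells. The complex I accessory subunit gene NDUFA10 had ratios of -0.62 ± 0.15 in sgGal4 and -0.83 ± 0.09 in uninfected cells, and NDUFA13 had -1.82 ± 0.41 and -3.59 ± 0.41. NDUFV2, a core iron-sulfur subunit, had -2.81 ± 0.37 and -3.34 ± 0.31. NDUFB9 and ATP5MGL were lower in the sgGal4 test (-0.55 ± 0.14 and -2.96 ± 1.22), and their uninfected ratios of 0.05 ± 0.09 and -2.39 ± 1.21 missed the threshold. NDUFA7 and NDUFA11 were lower in the uninfected test (-3.56 ± 0.85 and -1.60 ± 0.18), and their sgGal4 ratios were -1.74 ± 0.92, adjusted p = 0.093 and -0.16 ± 0.25, adjusted p = 0.587. NDUFV2, NDUFA13, NDUFA7 and NDUFA11 are among the 13 members that overlap another gene. The 12 of these 13 that were tested had a median ratio of 0.51 in sgGal4 cells, against 1.84 for the other 69 members, and the part of the overlap in their ratios was not tested.

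**Figure D1:**
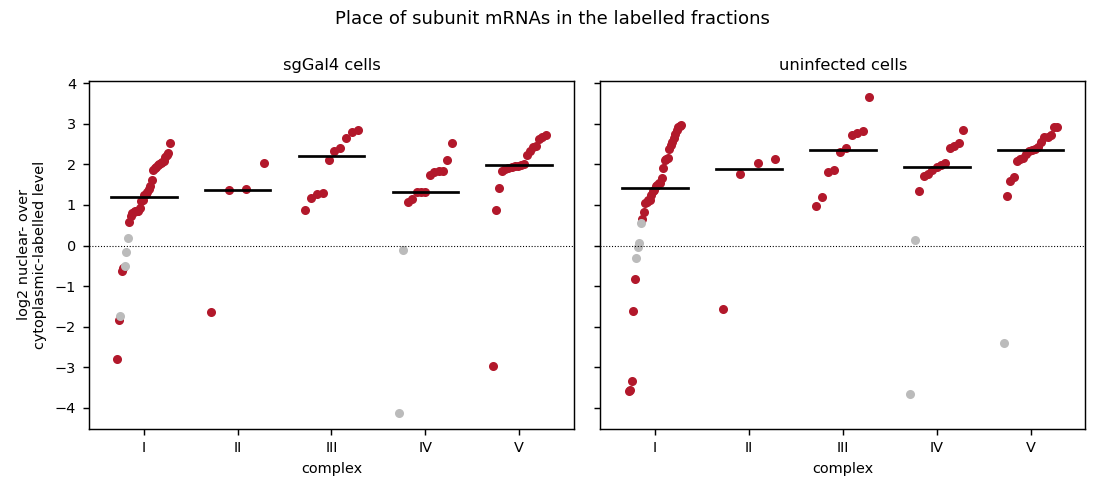
Log2 ratio of each member's level, nuclear-labelled over cytoplasmic-labelled libraries (vertical axis), by complex (horizontal axis), in sgGal4 cells on the left and uninfected cells on the right, with points sorted by value within a complex. Red points passed the adjusted p threshold, grey points did not, and bars are medians; most members lie above 0, and the members below 0 include NDUFA13 of complex I, at -1.82 in sgGal4 and -3.59 in uninfected cells.

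With NUP160 knocked down, most complex IV genes fell in the cytoplasmic-labelled libraries. Of 80 members tested there, 25 fell and 1 rose with sgNUP160 against sgGal4 (background 15.2% called, 7.05% higher and 8.13% lower). The median over members was -0.49 on the log2 scale, against 0.03 over all genes. Complex IV had 9 of 12 members lower and a median of -0.97, and all 12 estimates were below 0. Complex I had 8 of 36 lower (median -0.38), complex II 1 of 4 (-0.14), complex III 2 of 10 (-0.44) and complex V 5 of 18 (-0.35). In bulk RNA, fewer cells of a type and less RNA per cell cannot be told apart.

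NDUFB4, a membrane-arm subunit of complex I, had 10.9 and 8.07 CPM in sgNUP160 against 28.1 and 27.8 CPM in sgGal4 cytoplasmic-labelled libraries (log2 fold change -1.71 ± 0.32, adjusted p = 0.00381). COX8A, a small membrane subunit of complex IV, had 10.6 and 11.9 CPM against 29.1 and 31.8 CPM (-1.61 ± 0.25, adjusted p = 0.00135). COX5B, a zinc-binding subunit, had 60.2 and 48.4 CPM in sgNUP160 against 152 and 136 CPM in sgGal4 (-1.57 ± 0.19, adjusted p = 0.000224). Both sgNUP160 libraries were below both sgGal4 libraries for all 3 genes. COX8A is among the members that overlap another gene.

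COX5A, the partner of COX4I1 early in complex IV assembly, had 22.9 and 28.9 CPM in sgNUP160 against 59.7 and 60.3 CPM in sgGal4 (-1.40 ± 0.28, adjusted p = 0.00569), and COX4I1 itself changed by -0.99 ± 0.18, adjusted p = 0.00346. NDUFA8, a complex I accessory subunit, had 6.76 and 5.52 CPM against 13.8 and 15.1 CPM (-1.39 ± 0.33, adjusted p = 0.0133). Among core and catalytic subunits, the log2 fold change was -0.96 ± 0.25, adjusted p = 0.0198 for SDHB, -0.85 ± 0.25, adjusted p = 0.031 for the Rieske protein gene UQCRFS1, -0.75 ± 0.19, adjusted p = 0.0151 for ATP5F1B and -0.73 ± 0.15, adjusted p = 0.00728 for ATP5F1A. NDUFA11 was the 1 member that rose, with 52.8 and 62.4 CPM in sgNUP160 against 25.1 and 30.7 CPM in sgGal4 (0.87 ± 0.27, adjusted p = 0.0439). It is among the overlapping members, and with unstranded counts its adjusted p was 0.0814.

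In nuclear-labelled libraries 8 of 78 members fell and 1 rose with sgNUP160 (background 15.9% called, 7.36% higher and 8.54% lower), a share near the background, with a median of -0.10 against -0.01 over all genes. COX8A had 67.2 and 66.0 CPM in sgNUP160 against 98.0 and 103 CPM in sgGal4 (-0.61 ± 0.11, adjusted p = 0.000161), and NDUFV1, which holds the NADH-binding site, had 149.9 and 139 CPM against 214 and 228 CPM (-0.63 ± 0.09, adjusted p = 8.73e-06). UQCRB rose (0.33 ± 0.10, adjusted p = 0.022). NDUFB4 had 63.1 and 71.8 CPM against 65.7 and 66.5 CPM, and COX5B had 204 and 201 CPM against 222 and 240.0 CPM.

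The difference between the fractions was itself tested, as the sgNUP160 effect in nuclear-labelled minus that in cytoplasmic-labelled libraries. It passed the test above 0 for 15 of 81 members and below 0 for NDUFA11 (background 3.66% called, 3.25% higher and 0.409% lower), with a median of 0.46 against 0.13 over all genes. In all, 63 estimates were above 0 and 18 below. Complex IV held 9 of these 15 calls, of 13 tested, with a median of 1.09, and 12 of its 13 estimates were above 0. The largest were NDUFB4 (1.79 ± 0.32, adjusted p = 0.0018), NDUFA8 (1.45 ± 0.35, adjusted p = 0.0139), COX5B (1.45 ± 0.22, adjusted p = 0.000216), NDUFB3 (1.41 ± 0.32, adjusted p = 0.00959) and COX7A2 (1.34 ± 0.24, adjusted p = 0.00167).

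Other measures moved with the sgNUP160 cytoplasmic-labelled libraries. Reads matching no gene feature on the counted strand were 66.4 and 69.2% of reads mapped once in sgNUP160 against 51.9 and 55.4% in sgGal4. The mitochondrially encoded mRNAs summed to 21927 and 18903 CPM against 52362 and 48045 CPM. These are also the shallowest libraries, with 3107189 and 2354961 gene reads against 8458728 and 5966388 in sgGal4. Their part in the result was not tested. The count of 26 called members was 9 and 4 without sgNUP160 replicates 1 and 2 and 7 and 15 without sgGal4 replicates 1 and 2, and every member called in these fits fell. The 4 called without sgNUP160 replicate 2 no longer included NDUFB4 (-1.56, adjusted p = 0.0798) or COX5A (-1.59, adjusted p = 0.0641), while COX5B and COX8A passed in each of these fits. The 9 calls in the nuclear-labelled libraries were 5, 3, 5 and 4 in the same order. The 16 ratio calls were 19 and 6 without sgNUP160 cytoplasmic-labelled replicates 1 and 2, 5 and 17 without its nuclear-labelled ones, 8 and 25 without the sgGal4 cytoplasmic-labelled ones and 14 and 5 without the sgGal4 nuclear-labelled ones.

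**Figure D2:**
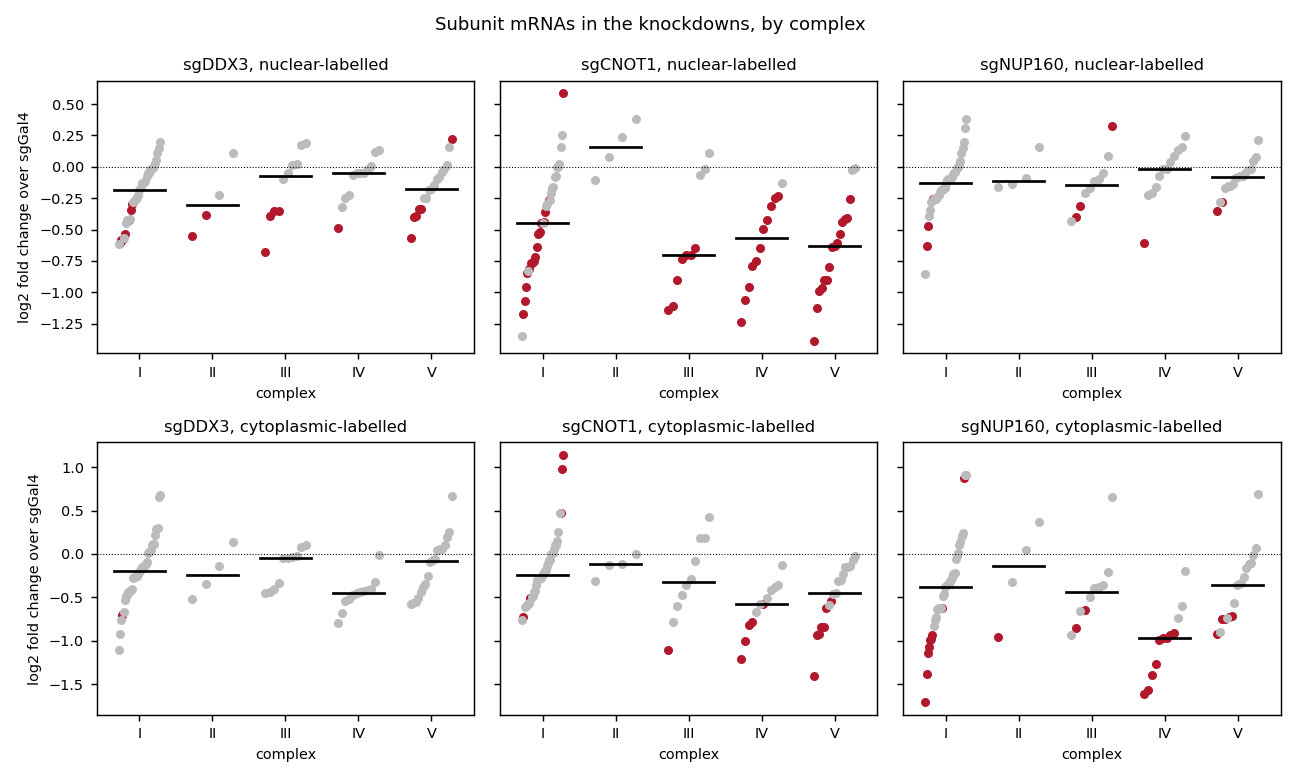
Log2 fold change of each member over sgGal4 (vertical axis) by complex (horizontal axis) for sgDDX3, sgCNOT1 and sgNUP160, in nuclear-labelled libraries above and cytoplasmic-labelled libraries below, with points sorted by value within a complex. Red points passed the adjusted p threshold, grey points did not, and bars are medians; with sgCNOT1 the nuclear-labelled medians of complexes I, III, IV and V lie between -0.70 and -0.45, and with sgNUP160 the cytoplasmic-labelled median of complex IV lies at -0.97.

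With CNOT1 knocked down, many members of complexes I, III, IV and V fell in nuclear-labelled libraries. Their sum was 7015 and 7006 CPM in sgCNOT1 against 8843 and 9112 CPM in sgGal4, and the groups did not overlap. Of 78 members tested 51 fell and 1 rose (background 49.6% called, 26.5% higher and 23.1% lower), with a median of -0.53 against 0.01 over all genes. Complex IV had 11 of 12 members lower (median -0.57), complex V 15 of 17 (-0.64), complex III 7 of 10 (-0.70) and complex I 18 of 35 (-0.45). None of the 4 complex II members passed the test, and their median was 0.16.

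ATP5ME, subunit e of the ATP synthase membrane part, had 37.6 and 33.8 CPM in sgCNOT1 against 85.7 and 94.2 CPM in sgGal4 (log2 fold change -1.39 ± 0.11, adjusted p = 2.70e-11). COX8A had 46.7 and 41.9 CPM against 98.0 and 103 CPM (-1.24 ± 0.11, adjusted p = 1.12e-10). Both sgCNOT1 libraries lay far below both sgGal4 libraries for these genes. The log2 fold change was -1.18 for NDUFA11, -1.14 for UQCR11 and -1.13 for ATP5MG, subunit g. NDUFA11, UQCR11 and COX8A overlap another gene.

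Other members of the same complexes differed in size of change. COX5A had 77.4 and 77.5 CPM in sgCNOT1 against 158 and 149.6 CPM in sgGal4 (-1.06 ± 0.09, adjusted p = 1.15e-10), and COX4I1 had 168 and 155 CPM against 253 and 269 CPM (-0.75 ± 0.08, adjusted p = 5.78e-09). NDUFV1 changed by -0.84 ± 0.09, adjusted p = 6.50e-09, CYC1 by -0.65 ± 0.10, adjusted p = 3.53e-06 and ATP5F1B by -0.42 ± 0.06, adjusted p = 1.26e-06. The log2 fold change was 0.0004 ± 0.08, adjusted p = 0.998 for NDUFS1, the largest iron-sulfur subunit of complex I, 0.11 ± 0.09, adjusted p = 0.358 for UQCRFS1 and 0.24 ± 0.12, adjusted p = 0.109 for SDHB, none of which passed. The member that rose was NDUFS4, an accessory subunit of the matrix arm, with 32.3 and 35.7 CPM in sgCNOT1 against 21.7 and 21.3 CPM in sgGal4 (0.58 ± 0.15, adjusted p = 0.00172). The 52 calls were 54 and 56 without sgCNOT1 replicates 1 and 2 and 47 without either sgGal4 replicate.

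In cytoplasmic-labelled libraries 15 of 80 members fell and 3 rose with sgCNOT1 (background 22.0% called, 13.0% higher and 9.01% lower), with a median of -0.31 against 0.01 over all genes. The share called was near the background, and 18.8% of members were lower. Complexes IV and V held 12 of the 15, with 5 of 12 and 7 of 18 members lower. ATP5MG had 2.31 and 2.85 CPM in sgCNOT1 against 6.50 and 7.54 CPM in sgGal4 (-1.40 ± 0.35, adjusted p = 0.00974), and NDUFA4 had 29.2 and 14.4 CPM against 56.4 and 51.3 CPM (-1.21 ± 0.27, adjusted p = 0.00464). UQCRB changed by -1.10 ± 0.22, adjusted p = 0.00272. NDUFB8 (1.14 ± 0.32, adjusted p = 0.0173) and NDUFA13 (0.98 ± 0.32, adjusted p = 0.0393) were among those that rose, and both overlap another gene.

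The 2 sgCNOT1 cytoplasmic-labelled libraries differed from each other. Reads matching no gene feature on the counted strand were 50.4 and 60.5% of reads mapped once, against 51.9 and 55.4% in sgGal4. Mitochondrially encoded mRNAs summed to 37674 and 14861 CPM, against 52362 and 48045 CPM in sgGal4. The 18 calls were 44 and 16 without sgCNOT1 replicates 1 and 2, and 2 and 8 without sgGal4 replicates 1 and 2. CSF3R, the monocyte and granulocyte marker with the highest level, had 500.0 and 509.8 CPM in sgCNOT1 and 336 and 348 CPM in sgDDX3 against 248 and 250.1 CPM in sgGal4 cytoplasmic-labelled libraries, while CD14, MPO and ELANE stayed at or under 3.82 CPM in all. The part of these measures in the results was not tested.

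The sgCNOT1 effect differed between fractions for 8 of 81 members, all lower in nuclear-labelled libraries (background 5.83% called, 2.59% higher and 3.24% lower), and the median was -0.08 against -0.05 over all genes. The largest differences were NDUFA13 (-2.34 ± 0.61, adjusted p = 0.018), NDUFB8 (-1.91 ± 0.43, adjusted p = 0.00596), UQCR11 (-1.56 ± 0.43, adjusted p = 0.0299) and NDUFA11 (-1.20 ± 0.35, adjusted p = 0.0333), all of which overlap another gene. NDUFV1 does not, and differed by -0.85 ± 0.22, adjusted p = 0.0161. NDUFA13 was near the floor in nuclear-labelled libraries, with 0.608 and 0.720 CPM in sgCNOT1 against 1.47 and 1.88 CPM in sgGal4. In cytoplasmic-labelled libraries it had 10.1 and 19.4 CPM in sgCNOT1 against 6.62 and 8.55 CPM in sgGal4. The 8 calls were 17 and 4 without sgCNOT1 cytoplasmic-labelled replicates 1 and 2, 5 and 1 without its nuclear-labelled ones, 1 and 5 without the sgGal4 cytoplasmic-labelled ones and 1 and 3 without the sgGal4 nuclear-labelled ones.

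**Figure D3:**
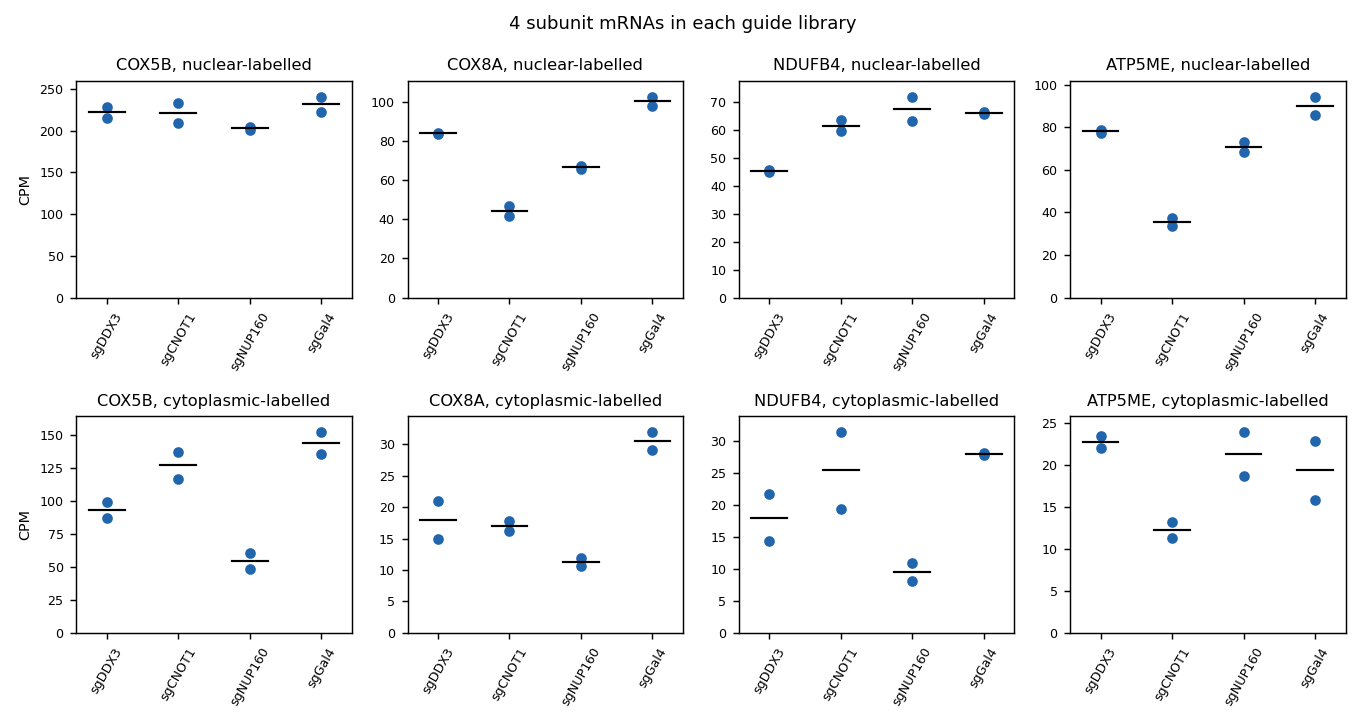
CPM (vertical axis) of COX5B, COX8A, NDUFB4 and ATP5ME in each library of the guide set, nuclear-labelled above and cytoplasmic-labelled below; points are libraries and bars are group means of 2. COX5B, COX8A and NDUFB4 are low in the sgNUP160 cytoplasmic-labelled libraries, and COX8A and ATP5ME are low in the sgCNOT1 nuclear-labelled libraries.

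With sgDDX3 the members moved little. In nuclear-labelled libraries their sum was 8430.0 and 8429 CPM in sgDDX3 against 8843 and 9112 CPM in sgGal4. Of 78 members 19 fell and 1 rose (background 31.3% called, 16.4% higher and 14.9% lower), so 25.6% of members were called in either direction, below the background, and 24.4% were lower. The median was -0.15 against 0.01 over all genes. NDUFB11 had 52.7 and 53.1 CPM in sgDDX3 against 82.3 and 75.1 CPM in sgGal4 (-0.58 ± 0.12, adjusted p = 0.000342), and NDUFS6 had 29.9 and 27.2 CPM against 39.7 and 47.6 CPM (-0.59 ± 0.15, adjusted p = 0.00263). Both are accessory subunits of complex I, and neither gene's groups overlapped.

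Other large falls were UQCRHL (-0.68 ± 0.21), NDUFC2 (-0.61 ± 0.20) and ATP5PO (-0.57 ± 0.14), of which UQCRHL is a copy of UQCRH and ATP5PO overlaps another gene. In complex II, SDHD, a membrane anchor, changed by -0.55 ± 0.18, adjusted p = 0.0209 and SDHB by -0.38 ± 0.13, adjusted p = 0.0219. ATP5F1A, the alpha subunit of ATP synthase, rose, with 878 and 887 CPM in sgDDX3 against 751 and 767 CPM in sgGal4 (0.22 ± 0.06, adjusted p = 0.00525). ATP5F1B, the beta subunit, had a log2 fold change of -0.08 ± 0.06, adjusted p = 0.309. The 20 calls were 10 and 6 without sgDDX3 replicates 1 and 2, 10 and 11 without sgGal4 replicates 1 and 2, and 12 with no filter on low counts.

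In cytoplasmic-labelled libraries 1 of 80 members passed the test with sgDDX3 (background 2.77% called, 1.08% higher and 1.68% lower), and the median was -0.25 against 0.01 over all genes. It was NDUFB9, with 129 and 133 CPM in sgDDX3 against 197 and 218 CPM in sgGal4 (-0.71 ± 0.16, adjusted p = 0.0278). In nuclear-labelled libraries NDUFB9 had 112 and 111 CPM against 107 and 110.1 CPM (0.05 ± 0.10, adjusted p = 0.75), and it was the 1 of 81 members whose effect differed between fractions (0.80 ± 0.21, adjusted p = 0.022; background 2.37% called, 2.28% higher and 0.0952% lower). Its adjusted p passed 0.05 in none of the fits that left out 1 library, with a range of 0.166 to 0.281 in the cytoplasmic-labelled test and of 0.0512 to 0.239 in the test between fractions. NDUFB9 was also lower with sgCNOT1 (-0.51 ± 0.16, adjusted p = 0.0286) and with sgNUP160 (-0.98 ± 0.16, adjusted p = 0.00172) in cytoplasmic-labelled libraries. The 3 knockdowns share their sgGal4 libraries, where NDUFB9 had the values given above.

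In the transgene set, cells with DDX3 knocked down and no transgene had higher cytoplasmic-labelled levels of most members than uninfected cells, with 64 of 80 estimates above 0. The guide set went the other way in this fraction. With sgDDX3 against sgGal4, 59 of 80 estimates were below 0 and the median was -0.25. The difference between the sets was not tested. DDX3X had 138 and 122 CPM in noTG, 314 and 317 CPM in WT and 289 and 290.4 CPM in uninfected cytoplasmic-labelled libraries, and in WT its reads can come from the transgene. Against uninfected cells 22 of 80 members rose and 1 fell (background 25.8% called, 14.0% higher and 11.8% lower), with a median of 0.26 against -0.0033 over all genes. Complex I had 12 of 36 members higher (median 0.27), complex II 2 of 4 (0.42), complex III 3 of 10 (0.26), complex IV 1 of 12 (0.18) and complex V 4 of 18 (0.26).

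NDUFC1 had 15.7 and 14.7 CPM in noTG against 10.1 and 6.10 CPM in uninfected cells (1.02 ± 0.25, adjusted p = 0.00228), and CYC1 had 84.2 and 123 CPM against 61.5 and 65.5 CPM (0.80 ± 0.13, adjusted p = 1.77e-05). NDUFB9 had 219 and 212 CPM in noTG against 142 and 153 CPM in uninfected cells (0.65 ± 0.10, adjusted p = 1.26e-05). The groups did not overlap for these 3 genes. UQCR11 (0.99 ± 0.18) and NDUFA13 (0.99 ± 0.24) also rose, and both overlap another gene. ATP5F1D, a stalk subunit of ATP synthase, rose by 0.75 ± 0.13. The 23 calls were 25 and 20 without noTG replicates 1 and 2 and 13 without either uninfected replicate. The mitochondrially encoded mRNAs summed to 73761 and 37788 CPM in noTG against 31545 and 40538 CPM in uninfected cells, so the 2 noTG libraries stood apart from each other in that measure. CSF3R was also lower, with 62.3 and 72.3 CPM in noTG, 186 and 181 CPM in WT and 204 and 174 CPM in uninfected cytoplasmic-labelled libraries. The part of both measures in the results was not tested.

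Against WT cells 6 of 80 members rose and none fell in noTG cytoplasmic-labelled libraries (background 8.40% called, 4.20% higher and 4.19% lower; median 0.27 against 0.01 over all genes). They were NDUFB9 (0.45 ± 0.10), ATP5F1D (0.44 ± 0.13), ATP5F1B (0.42 ± 0.09), UQCRC2 (0.42 ± 0.12), ATP5MC3 (0.42 ± 0.13) and ATP5F1A (0.40 ± 0.09), of which UQCRC2 is a complex III core subunit and ATP5MC3 encodes the ATP synthase ring subunit c. WT against uninfected cells gave 3 higher and 2 lower (background 8.27% called, 4.54% higher and 3.73% lower), with NDUFS8 (0.58 ± 0.14), CYC1 (0.50 ± 0.13) and NDUFS7 (0.47 ± 0.13) higher and UQCRFS1 (-0.65 ± 0.20) and NDUFS1 (-0.37 ± 0.10) lower. The 6 calls of noTG against WT were 16 without either noTG replicate, 3 without WT replicate 1 and 1 without WT replicate 2. The 5 calls of WT against uninfected cells were 0 and 2 without WT replicates 1 and 2 and 0 without either uninfected replicate. These comparisons share libraries: noTG and the mutants share WT, and noTG and WT share uninfected cells.

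ATP5F1B was the member called most often among the mutants in cytoplasmic-labelled libraries. It had 328 and 292 CPM in noTG, 318 and 327 in G325E, 312 and 305 in R326H, 339.5 and 333 in R351W, 307 in R376C, 319 and 323 in R534S and 312 and 297 in T532M, against 238 and 245 in WT and 271 and 283 in uninfected cells. The WT libraries were the lowest of the set. Against WT the log2 fold changes were 0.38 ± 0.09 in G325E, 0.34 ± 0.09 in R326H, 0.47 ± 0.09 in R351W, 0.40 ± 0.09 in R534S and 0.34 ± 0.09 in T532M, all past the threshold, and 0.30 ± 0.11, adjusted p = 0.26 in R376C, which was not. The WT libraries are common to all of them. With 1 library left out, the call in R351W held in every fit, those in noTG and R534S were lost without WT replicate 1 (adjusted p = 0.0599 and 0.0766), that in T532M without T532M replicate 1 or WT replicate 1 (0.102 and 0.103), and those in G325E (0.0532 to 0.101) and R326H (0.0839 to 0.196) in every fit.

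Few other members passed in the mutants' cytoplasmic-labelled libraries. G325E had 5 of 80 higher and none lower (background 6.15% called, 2.21% higher and 3.94% lower). R326H had 2 higher (background 5.23% called, 1.91% higher and 3.32% lower), R351W 5 higher (background 5.65% called, 2.20% higher and 3.46% lower) and R534S 5 higher (background 7.39% called, 3.11% higher and 4.27% lower). T532M had 6 higher and 1 lower (background 14.7% called, 6.83% higher and 7.88% lower). In R376C, with 1 library, edgeR called none of 80 (background 0.827% called, 0.0970% higher and 0.730% lower), with 7 at an unadjusted p under 0.05, and DESeq2 also called none. COX5B fell in T532M, with 71.7 and 63.8 CPM in T532M against 95.8 and 98.3 CPM in WT (-0.51 ± 0.13, adjusted p = 0.00585). In either direction together the share of members called, at most 8.75% in T532M, was near or below the background in each mutant. The share that was higher was 6.25% in G325E, R351W and R534S, 7.50% in T532M and 2.50% in R326H. With 1 library left out the counts were 0 to 2 in G325E, 0 in R326H, 1 or 2 in R351W and R534S, and 1 to 3 in T532M, and each library in these tests lowered the count by more than 1.5 times when left out. CSF3R was lower in each mutant too, with 63.5 and 67.4 CPM in T532M and 92.5 to 124 CPM in the other mutants, against 186 and 181 CPM in WT, and its part in these counts was not tested.

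In nuclear-labelled libraries the members moved in both directions. Against uninfected cells 20 of 78 rose and 13 fell in noTG (background 39.0% called, 19.7% higher and 19.3% lower; median 0.02 against -0.01 over all genes), and 9 rose and 6 fell in WT (background 21.2% called, 10.9% higher and 10.3% lower). Against WT 4 rose and 4 fell in noTG (background 18.0% called, 9.23% higher and 8.73% lower). In G325E 4 rose and 5 fell (background 17.3% called, 8.62% higher and 8.65% lower), as in R326H (background 17.7% called, 9.03% higher and 8.65% lower), and in R351W 7 rose and 4 fell (background 15.0% called, 7.51% higher and 7.52% lower). In R376C 2 rose and 1 fell (background 2.75% called, 1.12% higher and 1.63% lower), in R534S 4 rose and 11 fell (background 20.4% called, 10.2% higher and 10.2% lower), and in T532M 16 rose and 16 fell (background 35.1% called, 17.5% higher and 17.7% lower). The medians over members against WT lay between -0.02 and 0.05. The share of members called was near or below the background in these comparisons, and highest in noTG against uninfected cells (42.3%) and in T532M against WT (41.0%).

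COX7A2L, which joins complexes III and IV into supercomplexes, was the member with the largest fall in noTG against uninfected nuclear-labelled libraries. It had 72.8 and 79.6 CPM in noTG, 98.4 and 99.0 CPM in WT and 118 and 124 CPM in uninfected nuclear-labelled libraries. The 3 groups did not overlap, in the order noTG, WT, uninfected. The log2 fold changes were -0.77 ± 0.08, adjusted p = 6.33e-14 in noTG and -0.44 ± 0.07, adjusted p = 1.92e-06 in WT against uninfected cells, and -0.33 ± 0.08, adjusted p = 0.000894 in noTG against WT. CSF3R had 17.0 and 20.2 CPM in noTG, 26.9 and 25.6 CPM in WT and 41.9 and 37.5 CPM in uninfected nuclear-labelled libraries, the same order of groups, and its part in the result was not tested.

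Among the mutants, COX7A2L had 85.0 and 80.7 CPM in G325E, 78.3 and 81.7 in R326H, 79.7 and 77.0 in R351W, 96.6 in R376C, 77.9 and 75.5 in R534S and 68.6 and 65.6 in T532M. Both T532M libraries lay below the noTG ones, and R376C, with 1 library, lay close to WT. Against WT the log2 fold changes were -0.24 ± 0.07 in G325E, -0.29 ± 0.08 in R326H, -0.31 ± 0.08 in R351W, -0.33 ± 0.08 in R534S and -0.44 ± 0.08 in T532M, all past the threshold, and -0.02 ± 0.10, adjusted p = 0.959 in R376C. The call in G325E was lost when any 1 of its 4 libraries was left out (adjusted p 0.0507 to 0.185), that in R326H without R326H replicate 1 (0.0858) and that in noTG against WT without noTG replicate 1 (0.0771). In the guide set COX7A2L had a log2 fold change of 0.01 ± 0.10, adjusted p = 0.956 with sgDDX3 against sgGal4.

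NDUFB9 rose in several nuclear-labelled comparisons. It had 139 and 131 CPM in noTG, 140.3 and 146 CPM in R534S and 160.3 and 145 CPM in T532M, against 114 and 123 CPM in WT and 99.0 and 102 CPM in uninfected cells. Against WT it rose by 0.23 ± 0.07, adjusted p = 0.0107 in noTG, by 0.31 ± 0.07, adjusted p = 0.000465 in R534S and by 0.48 ± 0.07, adjusted p = 3.75e-08 in T532M. The noTG call was lost without WT replicate 1 (adjusted p = 0.156) or noTG replicate 1 (0.148). In cytoplasmic-labelled libraries, as given above, NDUFB9 was higher in noTG than in uninfected and WT cells and lower in sgDDX3 than in sgGal4 cells, and the difference between the 2 sets was not tested. The cytoplasmic-labelled call of noTG against WT was lost without WT replicate 1 or 2 (adjusted p = 0.0730 and 0.0623).

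T532M had 32 members called, the highest count among the mutants in these tests. UQCRHL (0.74 ± 0.13), SDHA (0.68 ± 0.20), NDUFA3 (0.51 ± 0.12), NDUFB9 and UQCR10 (0.43 ± 0.08) had the largest rises. NDUFB6 (-0.52 ± 0.12), NDUFB5 (-0.46 ± 0.13), COX7A2L, SDHC (-0.42 ± 0.09) and ATP5PO (-0.38 ± 0.12) had the largest falls. NDUFB6 had 26.7 and 25.2 CPM in T532M against 39.9 and 41.2 CPM in WT, and SDHA had 10.8 and 16.2 CPM in T532M against 8.09 and 9.59 CPM in WT. NDUFB6 did not overlap between the groups. SDHA did not either, though its 2 T532M libraries differed more from each other than T532M replicate 1 did from WT. The mitochondrially encoded mRNAs summed to 64027 and 49739 CPM in T532M against 20569 and 21690.0 CPM in WT, and the part of that difference in these results was not tested.

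Counts in the nuclear-labelled comparisons depended on single libraries. The 32 calls in T532M were 30 and 23 without T532M replicates 1 and 2 and 22 and 20 without WT replicates 1 and 2. The 15 in R534S were 6 and 13 without its replicates and 7 and 10 without those of WT, the 11 in R351W were 11 and 1, and 9 and 1, and the 9 in R326H were 4 and 4, and 10 and 3, in the same order. The 9 in G325E were 5 and 3, and 6 and 2, the 8 in noTG against WT were 1 and 5, and 5 and 5, and the 3 in R376C were 2 and 0 without the WT replicates. The 33 in noTG against uninfected cells were 21 and 22 without the noTG replicates and 22 without either uninfected one, and the 15 in WT against uninfected cells were 11 and 12 without the WT replicates and 5 and 10 without the uninfected ones. With R376C replicate 2 put back into the fit, which shares 1 estimate of the spread over all groups, the count was 1 in noTG against uninfected cells and 0 in the other 8 comparisons.

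**Figure D4:**
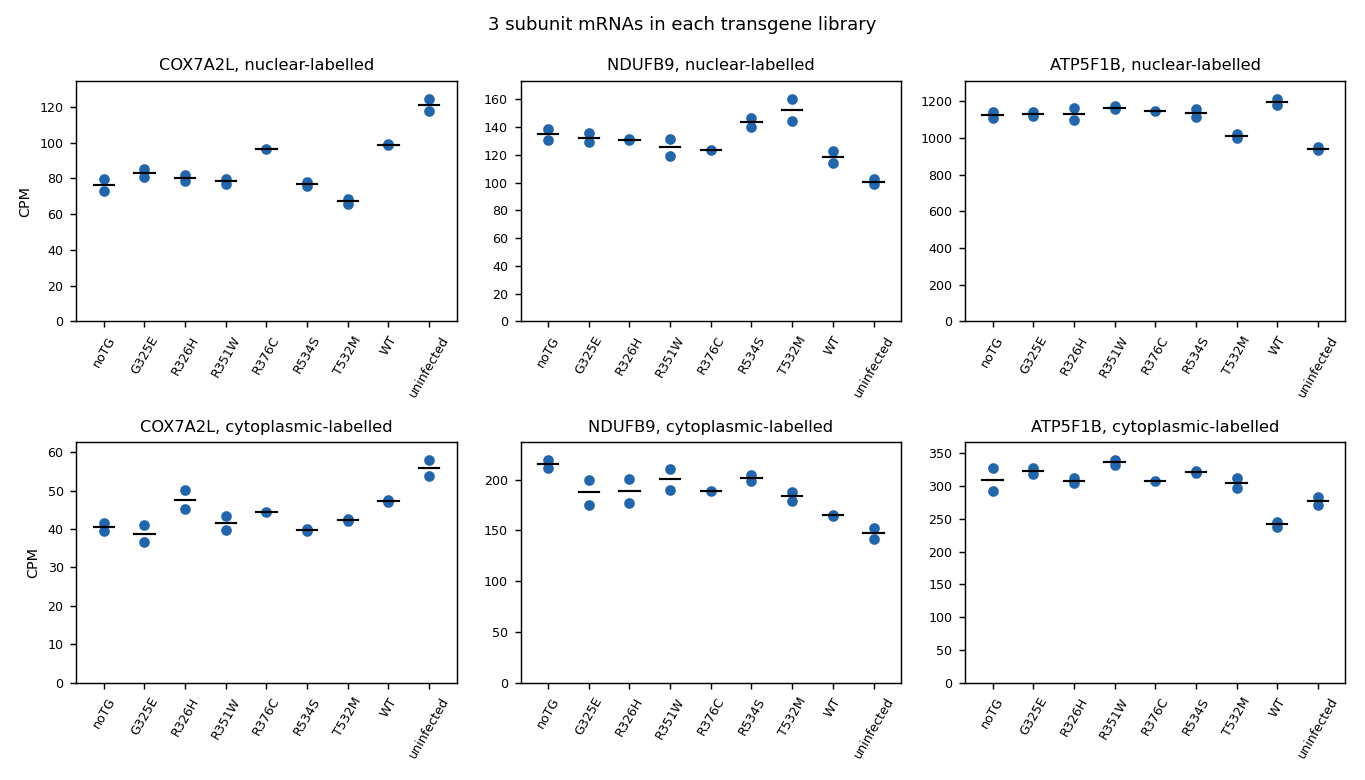
CPM (vertical axis) of COX7A2L, NDUFB9 and ATP5F1B in each library of the transgene set, nuclear-labelled above and cytoplasmic-labelled below, with noTG and the mutants to the left of WT and uninfected cells; points are libraries and bars are group means of 2 (1 in R376C). COX7A2L is highest in the uninfected nuclear-labelled libraries, and ATP5F1B is lowest in the WT cytoplasmic-labelled libraries.

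Genes of the pathway outside the 87 were described as 4 lists. Of 48 assembly factors, which build the complexes without staying in them, 18 fell and 4 rose of 47 tested with sgCNOT1 in nuclear-labelled libraries (median -0.28; background 26.5% higher and 23.1% lower), and 15 fell and none rose with sgDDX3 there (-0.16; background 16.4% higher and 14.9% lower). NDUFAF8 fell most with sgCNOT1 (-1.60). With sgNUP160 in cytoplasmic-labelled libraries 1 of 46 fell, COA5 (-1.09; background 8.13% lower), and the median was -0.06, against -0.49 for the members.

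The 13 mitochondrially encoded mRNAs all fell with sgNUP160 in cytoplasmic-labelled libraries (median -1.50; background 8.13% lower), and 1 of 13, MT-CO1, rose in nuclear-labelled ones (0.53; background 7.36% higher). With sgCNOT1 6 of 13 fell in cytoplasmic-labelled (median -0.95; background 9.01% lower) and 7 of 13 in nuclear-labelled libraries (-0.83; background 23.1% lower). Against WT in nuclear-labelled libraries 13 of 13 rose in T532M (median 1.39; background 17.5% higher), 12 in R534S (1.02; 10.2%) and in noTG (0.83; 9.23%), 11 in R326H (0.74; 9.03%) and in R351W (0.80; 7.51%) and 6 in G325E (0.57; 8.62%), and none in R376C (-0.13; 1.12%). In WT against uninfected cells 12 of 13 fell (-1.17; background 10.3% lower), so the shared WT libraries were low.

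Of 7 related subunits and carriers, 6 fell with sgCNOT1 in nuclear-labelled libraries (median -0.76; background 23.1% lower), among them the ADP/ATP carrier gene SLC25A6 (-0.91), and SLC25A5, another carrier, fell by 1.30 with sgNUP160 in cytoplasmic-labelled ones. NDUFA4L2, a paralogue of NDUFA4, fell by 3.46 in noTG against uninfected nuclear-labelled libraries and fell by 2.66 in cytoplasmic-labelled ones. Of 14 regulators 13 were tested, and 6 rose in noTG against WT in cytoplasmic-labelled libraries (background 4.20% higher). The largest rise was CLUH (0.73), an RNA-binding protein of mRNAs for mitochondrial proteins. With sgCNOT1 in cytoplasmic-labelled libraries TFAM, the mitochondrial DNA packaging factor, fell by 1.09. TFAM, SLC25A5 and NDUFA4L2 are single genes and do not stand for their lists. The counts of those lists in these comparisons are not reported here.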

How the data were processed

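RNA was measured in 51 libraries of K562 cells, and 50 were used. The authors deposited read counts per gene, made with STAR 2.7.5a on GRCh38 per the submitters' processing notes. Which annotation they used is not stated in those notes or in the labels. The layout gives unstranded counts and counts for each strand, and the counts of the strand that held most reads (column 4) were used. Reads not counted to a gene were 25.1% to 73.2% of all reads in nuclear-labelled and 58.4% to 74.0% in cytoplasmic-labelled libraries. They include unmapped, multiply mapped and ambiguous reads, and stayed out of library sizes. Reads matching no gene feature on the counted strand were 5.14% to 10.5% of reads mapped once in nuclear-labelled libraries. In cytoplasmic-labelled libraries they were 50.4% to 69.2%. The column holds 60664 gene identifiers, of which 60463 were given a symbol from a table of gene names. Lengths came from GENCODE release 29.

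Tests used edgeR 4.0.16 in R 4.3.3 (quasi-likelihood, TMM factors, filterByExpr), fitted over all genes, and a gene was called at a Benjamini-Hochberg adjusted p under 0.05. All libraries of a set and fraction shared 1 estimate of the spread, and tests between fractions used both fractions of a set. R376C, with 1 library, was assumed to vary like the other groups. Errors after ± are standard errors derived from the log2 fold change and the quasi-likelihood F statistic, and can be unreliable where the change is near 0. After the filter 78 members were tested in nuclear-labelled, 80 in cytoplasmic-labelled and 81 in joint fits. Some of the fits were also run on simulated data with the same spread for every gene, and their outcome is not used here. Alternatives were RLE factors, no filter, DESeq2 1.42.0, unstranded counts, the replicate number as a block, each library left out, and R376C nuclear-labelled replicate 2 put back.

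Members, complexes and pathway lists were chosen with earlier results of these data known. The genes named are up to 5 called members with the largest rise and 5 with the largest fall per comparison, a fixed set of core subunits, the 3 highest and lowest per length in each complex, and the tissue-restricted isoforms. Where genes picked by the size of their change did not overlap between groups, this follows largely from the choice and adds no support. NDUFB9, NDUFB4, COX5B, COX8A, COX7A2L, ATP5F1B, ATP5F1D, UQCRB, NDUFA11 and COX7A2 were followed into further comparisons after their values were seen. No test was made over a list. Single-gene values of some members are not reported here.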

Additional observations from a re-analysis of the deposited data

Results flagged for a closer look

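Each result below is a member whose response to a knockdown differed between the labelled fractions by the edgeR test of the difference itself, given as the log2 effect in nuclear-labelled minus that in cytoplasmic-labelled libraries. With sgNUP160 the difference passed the test for 9 complex IV members, each above 0: COX5B (1.45), COX7A2 (1.34), COX5A (1.26), COX7C (1.19), NDUFA4 (1.15), COX6A1 (1.13), COX8A (1.09), COX4I1 (1.06) and COX6B1 (0.93). Among complex I members that passed it was 1.79 for NDUFB4, 1.45 for NDUFA8, 1.41 for NDUFB3 and 0.98 for NDUFB9, and -1.19 for NDUFA11. UQCRB of complex III had 1.07 and ATP5F1A of complex V had 0.79. Of the members that passed with sgNUP160, COX6A1, COX8A and NDUFA11 overlap another gene on the same strand.

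With sgCNOT1 the 8 differences that passed were all below 0. They were -2.34 for NDUFA13, -1.91 for NDUFB8, -1.56 for UQCR11, -1.20 for NDUFA11, -0.92 for NDUFS7, -0.91 for ATP5MF, -0.85 for NDUFV1 and -0.76 for ATP5F1D. Of these, NDUFA13, NDUFB8, UQCR11, NDUFA11 and ATP5MF overlap another gene on the same strand. In the 2 sgCNOT1 cytoplasmic-labelled libraries UQCR11 had 8.18 and 26.9 CPM, against 12.9 and 12.7 CPM in sgGal4. NDUFS7 had 89.4 and 179 CPM there, against 98.7 and 98.6 CPM. Over 13 alternative fits the difference ranged from -2.19 to -0.55 for UQCR11, -1.62 to -0.55 for NDUFA11 and -1.37 to -0.36 for NDUFS7. It ranged from -1.04 to -0.54 for NDUFV1 and from -2.08 to -1.67 for NDUFB8. With sgDDX3 the difference was 0.80 for NDUFB9. No group had enough libraries to look for a single library apart from the others.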

How the results depend on the processing

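RLE factors moved none of the 29 counts of called members by more than 1.5 times. With no filter on low counts, sgDDX3 gave 5 in cytoplasmic-labelled and 12 in nuclear-labelled libraries and 0 between fractions, sgCNOT1 gave 3 between fractions, G325E 3 and R326H 1 in cytoplasmic-labelled libraries, and noTG against WT 5 in nuclear-labelled ones. DESeq2 gave 2 for sgDDX3 in cytoplasmic-labelled libraries, 3 for sgDDX3 and 15 for sgCNOT1 between fractions, 3 for G325E and 3 for R534S in cytoplasmic-labelled, and 5 for noTG against WT and 1 for R376C in nuclear-labelled libraries. Unstranded counts gave 11 for sgCNOT1 and 3 for WT against uninfected cells in cytoplasmic-labelled libraries, and 0 for sgDDX3 between fractions. With R376C replicate 2 put back, the nuclear-labelled count was 1 in noTG against uninfected cells and 0 in noTG against WT, WT against uninfected cells, G325E, R326H, R351W, R376C, R534S and T532M, and in R376C COX7B (-0.49) and UQCRB (-0.57) turned below 0. The cause of these moves was not tested.

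The replicate numbers were not taken to pair the samples. The correlation of same-numbered deviations was over 0.1 for 2 of 6 pairs of groups in the guide set's cytoplasmic-labelled libraries and for none in the other 3 fits. Over pairs of groups it was -0.01 to 0.22 in the guide set's cytoplasmic-labelled, -0.06 to 0.02 in its nuclear-labelled, -0.11 to 0.06 in the transgene set's cytoplasmic-labelled and -0.03 to 0.05 in its nuclear-labelled libraries. The number as a replicate block gave 4 called members for sgDDX3, 3 for G325E and 1 for R326H in cytoplasmic-labelled libraries, 2 for sgDDX3 between fractions and 1 for R376C in nuclear-labelled ones.

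With 1 library left out, the counts in cytoplasmic-labelled libraries were 0 in all fits for sgDDX3, 2 to 44 for sgCNOT1, 4 to 15 for sgNUP160, 13 to 25 for noTG against uninfected cells, 1 to 16 for noTG against WT, 0 to 2 for WT against uninfected cells, 0 to 2 for G325E, 0 for R326H, 1 to 2 for R351W, 0 for R376C, 1 to 2 for R534S and 1 to 3 for T532M. In nuclear-labelled libraries they were 6 to 11 for sgDDX3, 47 to 56 for sgCNOT1, 3 to 5 for sgNUP160, 21 to 22 for noTG against uninfected cells, 1 to 5 for noTG against WT, 5 to 12 for WT against uninfected cells, 2 to 6 for G325E, 3 to 10 for R326H, 1 to 11 for R351W, 0 to 2 for R376C, 6 to 13 for R534S and 20 to 30 for T532M. Between fractions they were 0 for sgDDX3, 1 to 17 for sgCNOT1, 5 to 25 for sgNUP160, 72 to 75 for the 2 fractions of sgGal4 cells and 74 to 75 for those of uninfected cells. Of single-gene values, 682 stayed on the same side of the threshold and 424 no longer passed in these fits, against 1222 and 202 under the other alternatives, and the 2 above reversed.

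Counting NDUFA4 with complex I moved 6 complex medians, among them that of complex IV to 1.53 in the ratio of fractions in sgGal4 cells and to -0.49 with sgCNOT1 in nuclear-labelled libraries.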
